A study of Mus musculus with 2 samples.

Results

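The apolipoprotein genes were followed in the liver of mice that lack a working apolipoprotein E gene, with and without squalene in the drink. They were chosen by name, as probe sets of the array that carry a single gene symbol from a list of 10: Apoa1, Apoa2, Apoa4, Apoa5, Apob, Apoc1, Apoc3, Apoe, Apoh and Apom. All 10 were found, on 15 probe sets, among 12393 genes on 20380 probe sets with a single symbol. The brightest probe set, by mean log2 signal over both pools, stood for its gene, and every other probe set of the gene is given beside it.

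Both groups were male, apolipoprotein E-deficient mice of C57BL/6J/OLA129 background with a stated age of 2 months, kept on chow with 1% glycerol in the drink. By its title, description and diet label the control pool received only that drink for 10 weeks, whereas in the squalene pool it also carried squalene, a precursor of cholesterol, at 1 g per kg each day. The growth protocol is 1 text shared by both samples and mentions squalene for the control too, so every ratio rests on the other labels being right. Each group is 1 pool of livers read on 1 Affymetrix array, so no spread between animals exists and every ratio compares 2 arrays without a test. Neither the number of mice in a pool nor the targeted allele of Apoe is given in the sources used here, and the number of arrays limits the precision of every value.

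Apolipoproteins are the protein part of lipoproteins, the particles that carry cholesterol, triglyceride and phospholipid in plasma. Apolipoprotein B is the non-exchangeable scaffold of very low density lipoprotein, apolipoproteins A-I and A-II are the main proteins of high density lipoprotein, and the small C apolipoproteins move between particles and set how fast lipase and receptors act on them. The liver is the chief source of most of them, and the apolipoprotein E-deficient mouse is a standard model of raised remnant lipoproteins and atherosclerosis.

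The liver transcripts of this family read close to equal in both pools. On the deposited scale, the log2 ratio of squalene over control ran from -0.21 for Apoa5 to 0.07 for Apob, with a median of -0.13 over the 10 genes beside 0.01 over 7330 measured genes. A gene was called measured where its signal reached the array median in at least 1 pool. A ratio past 1.5, the screen named by the submitters, was reached by 0 of the 10 genes, beside 1.12% of measured genes higher and 1.15% lower (2.26% in either direction). A ratio past 0.5 was also reached by 0, beside 11.3% higher and 10.4% lower (21.7%). Of the 733 measured genes in the brightest 10% by signal, which hold 9 of the 10, 0 passed 1.5. Past 0.5, 1.5% of these 733 were higher and 3% lower, so few genes of such signal pass either limit. On the deposited scale 8 of 10 genes lay below 0, beside 49.3% of measured genes. Without Apoe, which is outside the brightest 10%, 7 of 9 did, beside 61.9% of the 733. When the arrays were scaled to their spike-in controls, 0 of the 10 genes lay below 0, beside 22.2% of measured genes.

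The regions just before 4 transcription starts are shown because the genes they precede span nearly the whole range of ratios seen in the family. Apoa1, Apoc3, Apoa4 and Apoa5 are direct neighbours, with 0 other protein-coding genes between them in the RefSeq GRCm38.p6 gene table, yet Apoa5 had the lowest ratio of the family while Apoa4 lay near 0. Apoh is unlinked to them and had a ratio like that of Apoa5. Each line gives the 150 bases before the annotated start, 5′ to 3′, from RefSeq (GRCm38.p6), with matches to the motifs searched in capitals.
Apoa1, chr9:46228480-46228629, plus strand: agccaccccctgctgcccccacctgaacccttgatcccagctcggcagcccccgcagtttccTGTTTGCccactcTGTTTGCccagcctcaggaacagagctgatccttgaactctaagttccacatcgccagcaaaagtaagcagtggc
Apoa4, chr9:46240694-46240843, plus strand: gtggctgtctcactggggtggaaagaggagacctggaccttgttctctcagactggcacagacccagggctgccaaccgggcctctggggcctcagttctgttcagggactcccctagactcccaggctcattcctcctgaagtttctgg
Apoa5, chr9:46268458-46268607, plus strand: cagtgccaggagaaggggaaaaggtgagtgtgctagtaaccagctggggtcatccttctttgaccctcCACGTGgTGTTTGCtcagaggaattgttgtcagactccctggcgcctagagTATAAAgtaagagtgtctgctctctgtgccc
Apoh, chr11:108395147-108395296, plus strand: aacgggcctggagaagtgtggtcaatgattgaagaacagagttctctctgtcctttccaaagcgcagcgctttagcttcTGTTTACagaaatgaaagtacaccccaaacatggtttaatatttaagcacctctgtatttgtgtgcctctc

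The motifs were searched on both strands in the 250 bases before each start, in 12 windows of the 8 genes that matched the promoter table by symbol, some of them alternative and overlapping starts of 1 gene. Apoc1 and Apoc3 had no entry. TGTTTGC, a forkhead-type sequence, occurred at 2 places before Apoa1 and also before Apoa5 and Apob, in 4 of the 12 windows and in 4.3% of all 32851 windows of that length. TGTTTAC, the related forkhead sequence, occurred before Apoh and at a start of Apoa2 (2 windows, beside 3.17%). The E-box CACGTG stood 1 base before TGTTTGC in Apoa5 (2 overlapping windows, beside 6.02%), and TATAAA was present before Apoa2, Apoa5, Apob and Apoe (5 windows, beside 12.4%).

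AGGTCA, a core element of nuclear receptor sites, was found on the reverse strand before Apoa2 and Apoh (2 windows, beside 14%), in Apoh outside the bases shown. The longer forms CAAAGTCCA, known from HNF4 sites, and TTGCGCAA, from C/EBP sites, gave 0 matches in the 12 windows and were present in 0.384% and 0.164% of all windows. None of the motifs searched contains another. No motif searched was found before Apoa4 or Apom. These matches describe letters and not bound sites, and an absent match says only that those letters are not in the window.

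The gene targeted in these mice comes first among the measurements. Apoe encodes the ligand by which remnants bind liver receptors, and its single probe set read 141.0 without squalene and 130.6 with it. Both signals lay above the array medians of 39.9 and 41.35, and the log2 ratio was -0.11. Because the deleted part of the gene is not given, this probe set cannot check the deletion, and both pools carry the same genotype label. Its level relative to other probe sets, including the array median, does not measure its amount of RNA, since probes differ in brightness for equal amounts of RNA.

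Apob, the scaffold of very low density lipoprotein and its remnants, had the highest ratio of the family. Its single probe set read 10911.7 without and 11481.4 with squalene, which is a log2 ratio of 0.07. It was 1 of only 2 genes above 0 on the deposited scale and stayed above 0 after quantile normalization (0.17), loess normalization (0.18) and scaling to the spike-in controls (0.33).

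Among the structural proteins of high density lipoprotein, Apoa1, which also activates the cholesterol-esterifying enzyme LCAT, was read by 4 probe sets. The brightest went from 20803.2 to 19892.3, and the others from 17623.8 to 16025.2, from 16427.7 to 15940.5 and from 18757.5 to 16787.9. All 4 were lower in the squalene pool on the deposited scale, and all 4 were higher when scaled to the spike-in controls (0.10 to 0.22). Their log2 ratios of -0.06, -0.14, -0.04 and -0.16 had an SD of 0.06 around a mean of -0.10. The spread is technical, since the probe sets read the same 2 RNA pools and may share target sequence.

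Apoa2, the second protein of high density lipoprotein, read 17778.3 and 16002.1 on its single probe set (log2 ratio -0.15, or 0.11 on the spike-in scale). Apoa4, which is made in the gut and in mouse liver and travels on chylomicrons and high density lipoprotein, had the ratio nearest 0 on the deposited scale. Its brighter probe set read 8476.1 and 8662.8 (0.03) and the other 7529.0 and 7527.4 (-0.00031), and on the spike-in scale the ratios were 0.29 and 0.26.

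Among regulators of triglyceride clearance, each on 1 probe set, Apoc3 and Apoa5 were near the lower end of the family and Apoc1 near its middle. Apoc3, which slows lipolysis and remnant uptake, read 10980.6 without and 9645.9 with squalene (log2 ratio -0.19). Apoa5, which promotes lipolysis by lipoprotein lipase, read 9959.3 and 8625.9 (-0.21, or 1.15-fold lower). The ratios of these genes, whose proteins have opposed roles in lipolysis, differed by 0.02. Apoc1, an inhibitor of remnant uptake and of lipid transfer between particles, read 9647.8 and 8945.4 (-0.11). On the spike-in scale the ratios of Apoc3, Apoa5 and Apoc1 were all above 0, at 0.072, 0.051 and 0.15.

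Apoh and Apom are carried on lipoproteins but have other main roles. Apoh encodes beta-2-glycoprotein I, a plasma protein that binds anionic phospholipid, and read 13560.7 and 11779.6 (log2 ratio -0.20, or 1.15-fold lower). Apom, a lipocalin that carries sphingosine-1-phosphate on high density lipoprotein, read 4548.1 and 4128.8 on its brighter probe set (-0.14). Its other probe set read 1913.0 and 1895.3 (-0.01), so the difference seen on the first was not seen on both. Scaled to the spike-in controls, Apoh stood at 0.055 and Apom at 0.12.

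**Figure D1:**
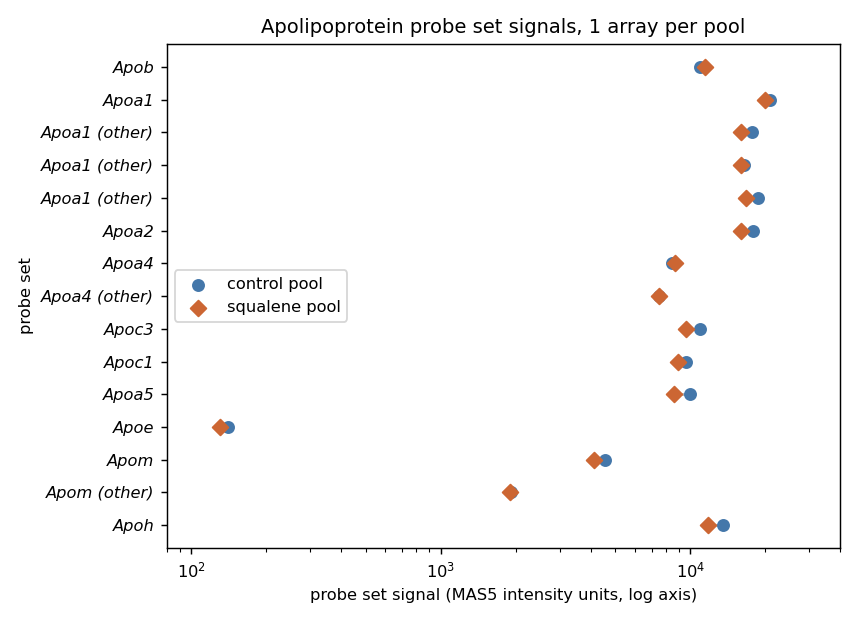
Signal of each apolipoprotein probe set (MAS5 intensity units, log axis) in the control pool (circles) and the squalene pool (diamonds), 1 array each. The points of each pair lie close together, from 141.0 and 130.6 for Apoe to 20803.2 and 19892.3 for the brightest probe set of Apoa1; levels of different probe sets are not comparable.

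The ratios of the family can be read against the scatter among probe sets that share a gene, since the arrays hold no other spread. Among the brightest 10% of probe sets the SD of their log2 ratios was 0.15 (902 probe sets of 380 genes). The 4 genes Apoa5, Apoh, Apoc3 and Apoa2 had ratios larger in size than this SD, all 4 below 0 on the deposited scale and all 4 above 0 on the spike-in scale. Among the brightest 10% of measured genes 45.3% had ratios beyond the same SD, and Apoa2 passed it by little. Ratios between members do not depend on any factor common to a whole array: Apob stood above Apoa5 by 0.28 and above Apoh by 0.28, the widest gaps among 45 pairs. With 1 array a pool, none of these gaps can be tested.

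**Figure D2:**
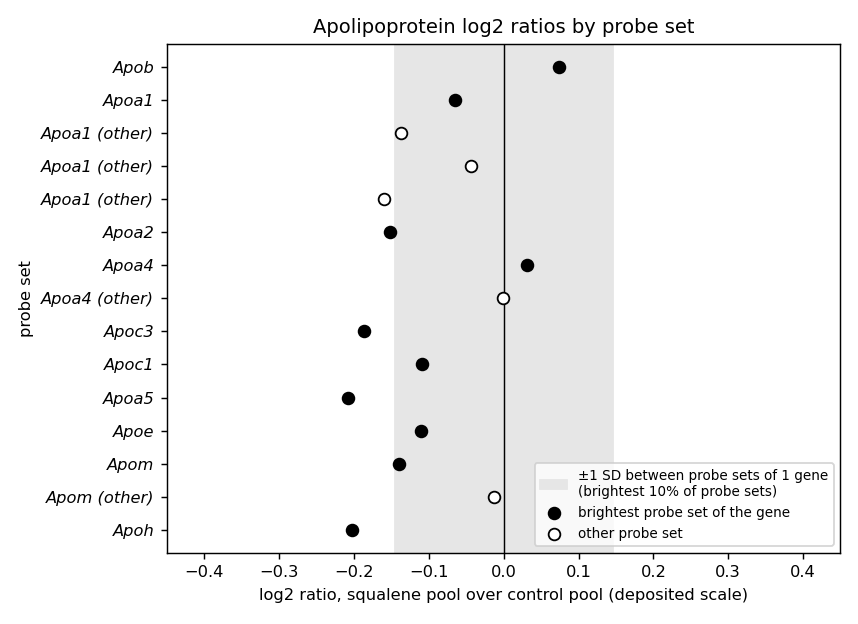
Log2 ratio of squalene over control for each apolipoprotein probe set on the deposited scale; filled points mark the brightest probe set of a gene, open points the others, and the grey band is 1 SD between probe sets of the same gene in the brightest 10% (0.15). Apart from Apob and the brighter probe set of Apoa4 every point lies below 0, and all lie above 0 when scaled to the spike-in controls.

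Signal strength and scaling moved with the sign. All 10 genes lay at or above the array median in both pools, and 9 of them fell in the brightest 10% of the 7330 measured genes, Apoe being the exception. Over the 733 genes of that group the median log2 ratio was -0.06 and 61.9% lay below 0. In the sixth of 10 equal groups by signal the median was 0.06 and 43.7% lay below 0. These are the extremes of the 10 groups in median and in share. The ninth stood at -0.01 with 51.6% below 0. The 18 probe sets of hybridization spike-ins, bacterial and phage RNAs added to the labelled sample, were all lower on the squalene array, by log2 ratios of -0.42 to -0.10 with a median of -0.26. The part of signal strength or of spike-in amount in the ratios of the family was not tested, and whether the scanner neared its ceiling for Apoa1, whose signals approach the array maxima of 22342.9 and 20695.1, was not analysed here.

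**Figure D3:**
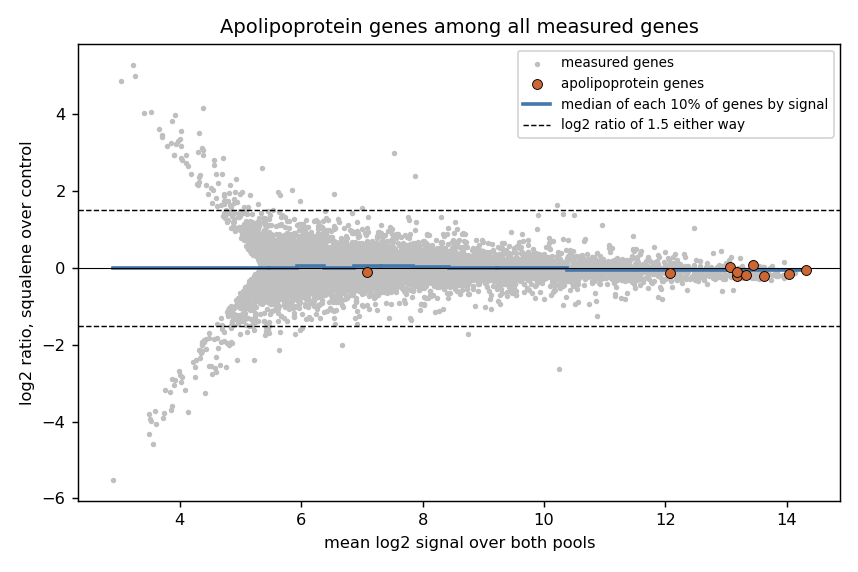
Log2 ratio against mean log2 signal for 7330 measured genes (grey) and the 10 apolipoprotein genes (orange), on the deposited scale. Blue bars give the median of each 10% of genes by signal, which is -0.06 in the brightest, and dashed lines mark the limit of 1.5, which none of the 10 genes passed.

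After quantile normalization, which gives both arrays the same distribution of signals, the median of the family was -0.06 and 6 of 10 genes lay below 0, beside 51.4% of measured genes. After loess, which removes the trend of the ratio with signal, it was -0.05 and 7 of 10 lay below 0, again beside 51.4%. Scaling to the spike-in controls raised the median of the family to 0.13 and that of all measured genes from 0.01 to 0.26, so that relative to all genes the family stood at -0.13 as before. Apoe, the member outside the brightest 10%, moved the other way from them under quantile and loess normalization, to -0.16 in both.

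**Figure D4:**
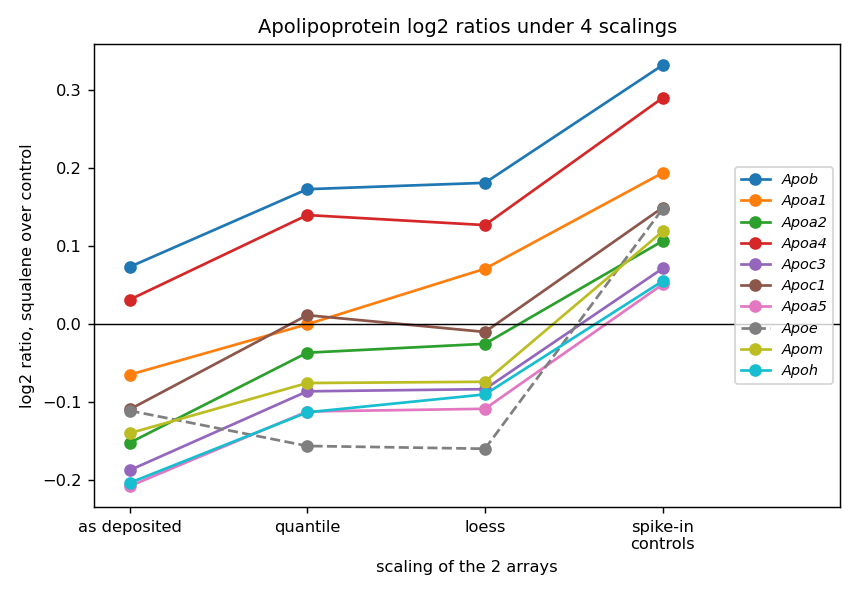
Log2 ratio of squalene over control for the 10 apolipoprotein genes (brightest probe set each) as deposited, after quantile and loess normalization and after scaling to the spike-in controls. The order of the genes other than Apoe changes little, with Apob highest throughout. The number below 0 goes from 8 to 6, 7 and 0, beside 49.3%, 51.4%, 51.4% and 22.2% of measured genes.

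Other apolipoproteins came from a list of 22 genes, of which 12 were on the array with a single symbol and 10 were measured. Their median was -0.03, with 6 below 0 and 4 above, beside 49.3% of measured genes below 0. The median was above 0 after quantile (0.059) and loess normalization (0.053). Apoc2, the cofactor of lipoprotein lipase, read 3139.6 without and 3372.0 with squalene (log2 ratio 0.10), and its neighbour Apoc4 read 7252.3 and 6248.3 (-0.21). These 2 genes lie beside Apoc1 and Apoe, with 0 other protein-coding genes between them in the RefSeq table, and the 4 neighbours had ratios from -0.21 to 0.10. Clu, which encodes apolipoprotein J, was covered by 4 probe sets, with ratios of -0.22 for the brightest and -0.14, -0.08 and -0.07 for the rest. The acute-phase apolipoproteins of the serum amyloid A family went both ways, with Saa3 at -0.56, Saa2 at 0.26 and Saa4 at 0.32. Past 0.5, 0 measured genes of the list were higher and 1, Saa3, lower, beside 11.3% and 10.4% of all measured genes. Saa1, near-identical to Saa2, stood at -0.06, and probe sets may not tell the pair apart.

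Genes of lipoprotein assembly and secretion had a median of -0.05 (0.01 after quantile or loess normalization) over 20 measured of 21. Past 0.5, 0 were higher and 2 lower, beside 11.3% and 10.4% of all measured genes. Mttp, which loads lipid onto apolipoprotein B, read 1399.2 and 1555.3 (log2 ratio 0.15), with 0.16 on its other probe set. Apobec1, which edits the Apob message, read 84.7 and 52.5 (-0.69) and Mia2, which helps large cargo leave the endoplasmic reticulum, 47.1 and 18.0 (-1.39), the latter below the array median in the squalene pool. Tm6sf2, which promotes lipidation of very low density lipoprotein, stood at -0.42. The COPII GTPase gene Sar1a stood at 0.46, but its other probe set, with a similar signal of 267.5 in the control, stood at 0.18.

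Remodelling proteins had a median of -0.08 (0.0044 when probe sets of a gene were averaged) over 15 measured of 19 listed. Past 0.5, 2 were higher and 1 lower, beside 11.3% and 10.4% of all measured genes. Lpl, the lipase on which apolipoproteins C-II, C-III and A-V act, read 274.2 without and 111.4 with squalene (log2 ratio -1.30), but its dimmer probe set read 28.7 and 43.5 (0.60). Lipg, the endothelial lipase, stood at 0.67 and Abcg1, a cholesterol exporter, at 0.66, both on dim signals of 51.3 and 98.9 in the control. Lcat, the partner of apolipoprotein A-I, read 3144.8 and 2947.5 (-0.09), and the paraoxonase gene Pon3 stood at -0.35.

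Receptors and their regulators had a median of -0.18 over 11 measured of 19 listed. Past 0.5, 1 was higher and 0 lower, beside 11.3% and 10.4% of all measured genes. Lrp1, a remnant receptor that binds apolipoprotein E, read 564.4 and 474.5 (log2 ratio -0.25), and Scarb1, the receptor for high density lipoprotein, 1001.9 and 1016.2 (0.02). Sorl1, a sorting receptor, stood at -0.44, Mylip, a ubiquitin ligase, at -0.26, and Stab1, a scavenger receptor of sinusoidal endothelium, at 0.53.

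Other secreted plasma proteins of the hepatocyte, measured in 25 of 31 listed, had a median of -0.09. On the deposited scale 20 of the 25 lay below 0, beside 49.3% of measured genes and 61.9% of the brightest 10% of them. Alb read 16656.0 and 14625.1 (log2 ratio -0.19) and Ttr 16826.9 and 14596.3 (-0.21), close to the values of Apoa5, Apoh and Apoc3. Serpina1b stood at -0.22 and the complement gene Cfb at -0.31. None of the 25 passed 0.5 in either direction, beside 1.5% higher and 3% lower in the brightest 10% of measured genes. After quantile or loess normalization their median was 0.00 and 0.01. A difference between this list and the apolipoproteins cannot be tested with 1 array a pool.

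Cell type markers gave the setting of these values. All 15 hepatocyte markers on the array were measured, with a median of 0.02. Past 0.5, 0 of them were higher and 1, G6pc, lower (-0.80), beside 11.3% and 10.4% of all measured genes. Of 8 intestinal markers 7 were below the array median in both pools, among them Vil1, Cdx1 and Cdx2, while Fabp2 read 1363.0 and 1004.6. Macrophage and Kupffer cell markers, 17 measured of 19 on the array, lay below 0 in 16 cases with a median of -0.69, beside 49.3% of measured genes below 0. Their summed signal went from 8332.7 to 5314.0, a sum in which bright probe sets weigh most and which does not measure an amount of RNA. Cd14 stood at -1.76, Msr1 at -1.33 and Lyz2 at -1.07, with Cd14 below the array median in the squalene pool (78.1 and 23.1). Trem2 went the other way, from 16.5, below the array median of the control, to 49.9. Its other probe set read 6.3 and 6.8. Medians were -0.18 over 11 endothelial and -0.70 over 9 stellate cell or fibroblast markers, and 4 or fewer markers of lymphocytes, blood cells, fat, exocrine pancreas or (0 of 5) bile duct were measured. Macrophages also transcribe Apoe in mice with a working gene, but both pools are labelled apolipoprotein E-deficient. The part of the macrophage marker difference in the Apoe ratio of -0.11 was not tested. In bulk liver, fewer cells of a type and less RNA per cell cannot be told apart.

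**Figure D5:**
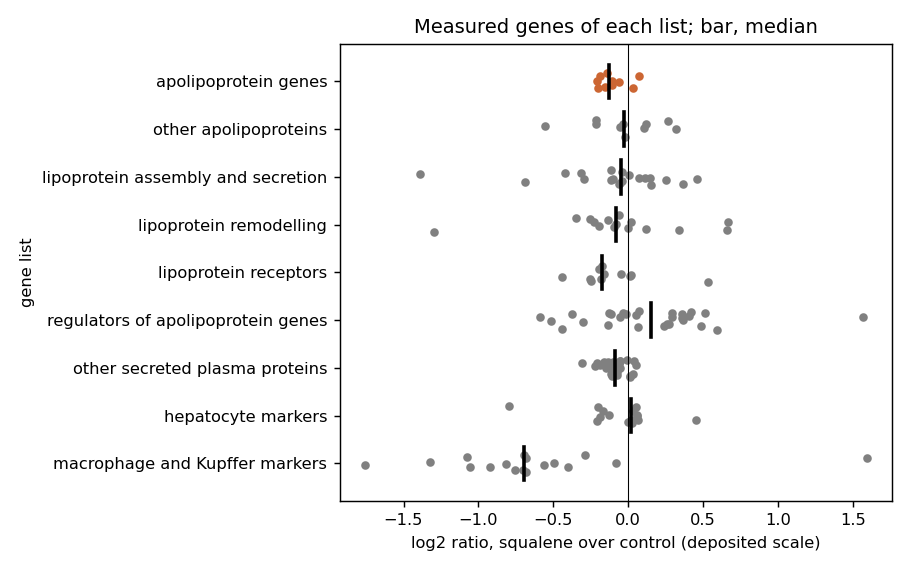
Log2 ratio of squalene over control for the measured genes of each list on the deposited scale, 1 point a gene, with the list median as a bar. The 10 apolipoprotein genes (orange, median -0.13) span -0.21 to 0.07, the other secreted plasma proteins (median -0.09) -0.31 to 0.05, and macrophage markers stand at a median of -0.69; scaling to the spike-in controls moves every point up by 0.26.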

How the data were processed

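Liver RNA of 2 pools, 1 array each, was analysed. The deposited intensity values are linear probe set signals made by the authors with MAS5, per the submitters' processing notes; software version and genome build were not given in the sources used here, and detection calls were not used. Both arrays had a 2%-trimmed mean of 200.1, seen in the values. MAS5 corrects each array alone, so a trend of the ratio with signal can remain.

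Of 22690 probe sets 64 array controls were left out. Symbols came from the platform annotation; 20380 probe sets carried 1, 691 several and 1555 none, and only the first were named. Ratios are squalene over control on the log2 scale, with no pseudocount, test or p-value. A gene was called measured at or above the array median (39.9 control, 41.35 squalene) in at least 1 pool. The 10 genes, the lists and the limits were chosen with earlier results of these data known. Of each list described beyond its median, up to 4 measured genes with the largest ratios were named, with a fixed set (Mttp, Lrp1, Scarb1, Lpl, Lcat, Apoc2, Apoc4, Clu, Apobec1, Hnf4a, Alb, Ttr); Saa1, the intestinal markers and G6pc were added after the values were seen. With 2 arrays, no likeness of pattern between genes can be measured.

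Quantile and loess normalization used limma 3.58.1 in R 4.3.3; the rest used Python 3.11.15, numpy 2.4.6, pandas 2.3.3 and matplotlib 3.10.9. Simulated data with known changes were used to check the counting.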

Additional observations from a re-analysis of the deposited data

How the results depend on the processing

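Alternatives were quantile and loess normalization, centring, scaling to the spike-in controls, a pseudocount of 3, signals floored at the array median, other choices of probe set, and 2 other filters. Of 230 recomputed values, 190 moved by less than the SD between probe sets of the same gene and 40 by more. That SD was 0.24, from the brightest of 3 groups of probe sets by signal. For medians it was divided by the root of the number of genes, which treats genes on the same arrays as independent, and counts were allowed 1.5 times. Part of the 190 could not move: flooring leaves signals above the array median unchanged, and a gene with 1 probe set has the same ratio when probe sets are averaged. Under scaling to the spike-in controls 19 values moved and 4 did not. Staying within the SD does not fix a sign: Apoc1 turned to 0.012 after quantile and Apoa1 to 0.071 after loess normalization. Scaling to the spike-in controls raises every log2 ratio by 0.26 by its construction. Under it the ratios were 0.19 for Apoa1, 0.11 for Apoa2, 0.29 for Apoa4, 0.051 for Apoa5, 0.33 for Apob, 0.15 for Apoc1, 0.072 for Apoc3, 0.15 for Apoe, 0.055 for Apoh and 0.12 for Apom. The median of the apolipoprotein genes was then 0.13, and 0 of them lay below 0, beside 22.2% of measured genes. List medians were 0.23 for other apolipoproteins, 0.21 for assembly and secretion, 0.18 for remodelling, 0.082 for receptors, 0.41 for regulators and 0.17 for other plasma proteins. Loess put the median of the apolipoprotein genes at -0.049. After quantile and loess normalization the medians were 0.059 and 0.053 for other apolipoproteins, 0.0093 and 0.0085 for assembly, and 0.0031 and 0.0068 for other plasma proteins. With probe sets of a gene averaged they were 0.015 for assembly, 0.0044 for remodelling and 0.085 for regulators, and with plain-suffix probe sets -0.10 for assembly, -0.25 for receptors and 0.29 for regulators. The regulators stood at 0.090 with floored signals, 0.066 with the probe set of smallest ratio and 0.071 with both pools at or above the array median; causes of these shifts were not tested. Over the 7 genes with a plain-suffix probe set 6 lay below 0, beside 47.8% of the 5740 genes measured with such probe sets. No paired analysis was possible because each group is 1 pool on 1 array. With no replicate, no spread between animals can be given. The SD between probe sets is technical, and an error shared by a whole array does not enter it.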

Other observations

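Transcription factors and cofactors known to act on apolipoprotein genes went both ways on the deposited scale. Of 35 listed, 32 were on the array and 28 measured. Of these 28, 11 lay below 0, beside 49.3% of measured genes, and 17 above. Their median log2 ratio was 0.15. That median was 0.071 over those at or above the array median in both pools, and 0.066 when each gene was given its smallest ratio. Past 0.5, 3 were higher and 2 lower, beside 11.3% and 10.4% of all measured genes. Ppargc1a, a coactivator of hepatic metabolic genes, read 74.8 without and 221.3 with squalene (1.56), with 0.23 to 1.32 on its other 4 probe sets. Foxo1, a forkhead factor restrained by insulin, had ratios of 0.60 for the brightest of 4 probe sets and 0.76 to 0.81 for the rest. Srebf1, a driver of lipogenic genes, stood at -0.59 and the forkhead factor Foxa2 at -0.52.

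Probe sets of Hnf4a, the nuclear receptor on which many hepatic apolipoprotein promoters depend, disagreed in sign. The brightest read 3891.8 and 3564.5 (log2 ratio -0.13), while the other 3 stood at 0.32, 0.42 and 0.39, all 3 with control signals of 157.3 to 947.3. The transcripts each of them reads were not analysed here.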
